A study of Mus musculus with 10 samples.

Results

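The regions described here are the enriched islands of butyrylated and of acetylated lysine 8 of histone H4 (H4K8bu and H4K8ac) in mouse round spermatids. They were taken from 1 deposited list per mark, on chromosomes 1 to 19 of the mouse genome build mm9. There were 61326 such islands, 33800 for H4K8bu and 27526 for H4K8ac, of 301484 islands in the 8 lists of the series. An island that shared at least 1 bp with an island of the other list was called shared, and any other island private.

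The series mapped acetylation and butyrylation of H4 at lysines 5 and 8 by chromatin immunoprecipitation and sequencing (ChIP-seq) in spermatocytes, which are in meiosis, and in round spermatids, the haploid cells that follow. It had 10 samples, 1 library per mark and stage and 1 input library per stage. The cells had been fractionated from testes of the strain Oncins France 1, and mononucleosomes prepared from them were used at about 100 ug per ChIP with 5 ug of antibody, in a buffer that held Na butyrate. The H4K8bu antibody came from PTM biolabs and the H4K8ac antibody was a gift from Dr H. Kimura, so the lists differ in antibody as well as in mark, and these cannot be told apart. Both round spermatid lists had been called against the same input library. The labels gave no genotype, age, number of animals or purity of the fractions. No group had a replicate, so no difference between libraries could be set against replicate spread, and no test between them was made. Intervals of shares, folds and ratios are 95% and cover counting error only.

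Acetylation and butyrylation are acyl groups that enzymes place on the side chain of lysine, where they remove its positive charge. Butyryl is the longer of the pair, and since a lysine carries 1 group at a time, the marks exclude each other on 1 H4 tail but not across cells or alleles. Acetylated H4 is bound by bromodomain proteins such as BRDT of the testis, and most histones are later replaced as spermatids mature. ChIP-seq reads the average over many cells, so a shared island says that both marks were found at a place, not on the same nucleosome.

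The H4K8bu islands held 8201772 ChIP reads and 3309314 input reads, and the H4K8ac islands 4665744 and 2145305. The fold of an island is its ChIP reads over its input reads times a constant of its list, 1.53 for H4K8bu and 1.42 for H4K8ac and taken as the size of the input library over that of the ChIP library. If the constants are such ratios, the H4K8bu library had 0.928 times the reads of the H4K8ac library. Library sizes themselves were not given. The H4K8bu list had 1.23 times as many islands and 1.59 times as many bases as the H4K8ac list, and the part of depth in this was not tested. Island edges fell on multiples of 200 bp, and no gap between islands of 1 list was below 800 bp.

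H4K8bu islands were wider than H4K8ac islands and, with the constants of the lists, stronger over input. Their width had a median of 4000 bp (quartiles 2600 and 6600) for H4K8bu and 3200 bp (2200 and 5200) for H4K8ac. The median fold was 3.50 (quartiles 2.74 and 4.50) for H4K8bu and 3.10 (2.48 and 3.83) for H4K8ac. Islands over 16 kb made up 3.12% of the H4K8bu list and 0.897% of the H4K8ac list, and those up to 2 kb 12.2% and 23.5% in the same order. In bases, H4K8bu covered 181.7 Mb and H4K8ac 114.3 Mb, of which 106.9 Mb lay in both.

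Overlap was one-sided. Of H4K8bu islands, 24508 (72.5%, 72.0 to 73.0) were shared and 9292 (27.5%) private. Of H4K8ac islands, 26459 (96.1%, 95.9 to 96.3) were shared and 1067 (3.88%) private. By the 1 bp rule, H4K8ac islands thus lay almost always on an H4K8bu island, while 27.5% of H4K8bu islands had no H4K8ac island. The size of this contrast depended on the rules. Shared parts of H4K8bu and H4K8ac were 79.9% and 86.9% with lists of equal length by fold, and 57.5% and 70.6% with an overlap of 50% of both islands. With q-values below 1e-10 they were 66.5% and 98.2%. In bases the overlap was one-sided too, with 58.8% of H4K8bu bases in H4K8ac islands and 93.5% of H4K8ac bases in H4K8bu islands. Most bases covered by H4K8bu alone, 46.99 Mb or 25.9% of its list, were parts of shared islands outside any H4K8ac island. These include outer parts and gaps between H4K8ac islands under a single H4K8bu island. Private H4K8bu islands held 27.8 Mb (15.3%). For H4K8ac alone the parts of shared islands came to 5.125 Mb (4.48%) and the private islands to 2.3 Mb (2.01%).

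Private islands were narrower and weaker than shared islands in both lists. Private H4K8bu islands had a median width of 2800 bp, 86 ChIP reads, 49 input reads and a fold of 2.73 (quartiles 2.29 and 3.30). Shared H4K8bu islands had 4800 bp, 202 ChIP reads, 85 input reads and a fold of 3.87 (3.08 and 4.81). The private class held 10.6% of the reads of the H4K8bu list, and 10.8% of its islands had a fold under 2, against 2.05% of shared islands. A fold of 5 or more was found in 274 private H4K8bu islands (2.95%), against 21.1% of shared H4K8bu islands. Of those 274, 194 were up to 2 kb wide, so their folds rest on few input reads.

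Private H4K8ac islands were few and mostly faint. Their medians were 2000 bp, 60 ChIP reads, 38 input reads and a fold of 2.21 (quartiles 1.85 and 2.79), against 3200 bp, 118 reads, 57 input reads and 3.14 (2.52 and 3.85) for shared H4K8ac islands. A fold under 2 was found in 34.7% of private and 7.28% of shared H4K8ac islands. One of 5 or more was found in 22 private islands (2.06%) and in 5.25% of shared islands. Private H4K8ac islands held 1.61% of the reads of their list. Input was somewhat denser in private islands, with medians of 18.1 input reads per kb in private and 17.3 in shared H4K8bu islands, and 19.5 and 17.3 in private and shared H4K8ac islands. The part of input density in the sharing was not tested. ChIP reads per kb differed the other way, 32.1 in private against 43.2 in shared H4K8bu islands and 31.1 against 38.2 in H4K8ac islands. Fold and width also decide whether an island is called, so these differences are a description of the lists. The difference in median log2 fold, private minus shared, was -0.50 for H4K8bu and -0.51 for H4K8ac. It depended on the rules in both lists. For H4K8bu it lay between -0.28, in the upper 50% by fold, and -0.53, among islands with a q-value below 1e-10. For H4K8ac it lay between -0.066, when sharing needed 50% of both islands, and -0.61, with lists of equal length.

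**Figure D1:**
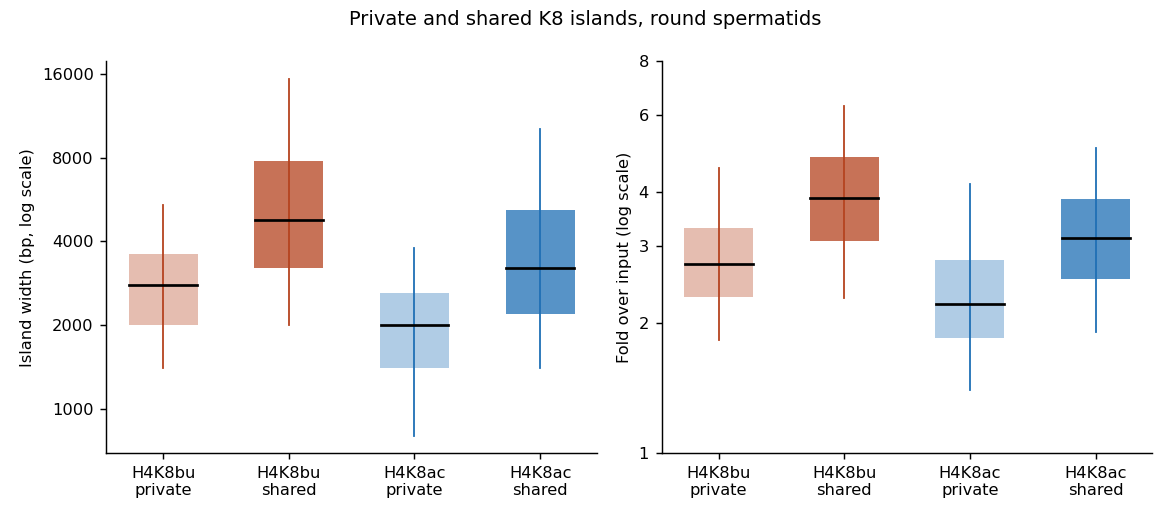
Width (bp, left) and fold over input (right), both on log axes, of private and shared islands of H4K8bu and H4K8ac in round spermatids. Boxes span the quartiles, the black line is the median and thin lines run between the 5th and 95th percentiles; in both lists the private box lies below the shared box, with median folds of 2.73 and 3.87 for H4K8bu and 2.21 and 3.14 for H4K8ac.

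The share of H4K8bu islands with an H4K8ac partner climbed with strength. With the list cut into 5 quintiles by its own fold, it was 41.3% (40.2 to 42.5) in the weakest quintile, then 61.5%, 76.2% and 88.8%, and 94.7% (94.2 to 95.2) in the strongest. For H4K8ac the same shares were 88.6%, 96.5%, 97.9%, 98.8% and 98.7%. So even the weakest H4K8ac islands had an H4K8bu partner about as often as the next to strongest quintile of H4K8bu had an H4K8ac partner.

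Wide H4K8bu islands were nearly always shared. All 1053 H4K8bu islands over 16 kb were shared, which leaves a lower bound of 99.7%, and so were 98.9% of those of 8 to 16 kb. The share was 85.8% at 4 to 8 kb, 60.0% at 2 to 4 kb and 40.5% at 1 to 2 kb. The 172 H4K8bu islands of up to 1 kb were shared in 51.2% (43.4 to 58.8), above the next class, and they had a higher input density, 22.0 reads per kb by the median. For H4K8ac the shares from the narrowest to the widest class were 81.2%, 91.8%, 96.2%, 99.5%, 99.8% and 99.6%.

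Width and strength each went with sharing when the other was held in a range. Among H4K8bu islands of up to 2 kb, 32.6% of those with a fold under 3 were shared and 58.5% of those with a fold of 5 or more. Among islands over 8 kb the shares were 91.1% at a fold under 3 and 100% (1999 of 1999) at a fold of 5 or more. A wide, weak H4K8bu island thus had an H4K8ac partner more often than a narrow, strong one. Their median widths were 9800 and 1600 bp. Under the 1 bp rule a wider island meets others more easily, and the part of this was not tested. By the density of input, the H4K8bu share was 73.5% in the quintile with the least input per kb, between 71.4% and 78.8% in the next 3, and 62.7% in the quintile with the most.

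**Figure D2:**
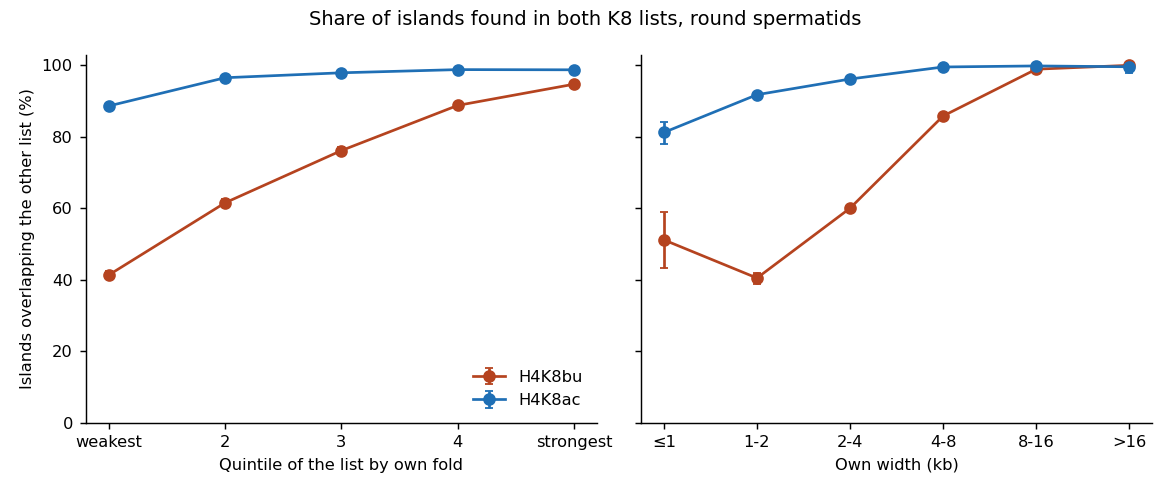
Percent of H4K8bu and of H4K8ac islands that overlap an island of the other list, by quintiles of each list's own fold (left) and by own width in kb (right). Bars are exact 95% intervals; the H4K8bu line climbs from 41.3% to 94.7% by fold and reaches 100% over 16 kb, while the H4K8ac line stays between 81.2% and 99.8%.

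Private islands were mostly not fringes of an island of the other list. The nearest H4K8ac island lay a median of 26000 bp from a private H4K8bu island (quartiles 8800 and 65800). Of private H4K8bu islands, 16.1% lay within 5 kb of an H4K8ac island and 15.4% (1432 islands) more than 100 kb from any. For private H4K8ac islands the median distance to H4K8bu was 17200 bp, with 23.6% within 5 kb and 8.25% (88 islands) beyond 100 kb.

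The weakness of private H4K8bu islands can be set against the range that the H4K8ac list covers. Divided by 1.25, the median ratio of folds at paired islands given further on, the median private H4K8bu fold came to 2.19, and 14.0% of H4K8ac islands had a fold below that. The 10th percentile of the H4K8ac folds was 2.06. A scaled fold below it was found in 40.9% of private and 10.5% of shared H4K8bu islands. Most private H4K8bu islands had scaled folds above the 10th percentile of the H4K8ac folds, though many lay near it. The ratio used for scaling comes only from places where H4K8ac was called, and calling also depends on reads and width. The comparison therefore cannot tell whether H4K8ac at private H4K8bu islands lay below what could be called, and this was not tested.

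Single private islands show both ends of this range. The strongest private H4K8bu island with at least 100 ChIP reads lay on chromosome 2 from 30400001 to 30401600, with 102 ChIP reads over 17 input reads and a fold of 9.17 (5.46 to 16.4). It had H4K8bu and H4K8ac islands in spermatocytes and both H4K5 islands in round spermatids, and its nearest H4K8ac island of the same stage was 78400 bp away. The next, on chromosome 14 from 26731201 to 26736800, had 153 reads over 29, a fold of 8.07 (5.40 to 12.4), and overlapped only an H4K5ac island among the other 4 lists. Wider private islands with many reads lay on chromosome 16 from 18625001 to 18635400, where 356 reads over 150 gave a fold of 3.63 (2.99 to 4.42). A further such island on chromosome 7, from 19740601 to 19754000, had 397 over 196 and a fold of 3.10 (2.60 to 3.69).

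The private island with the most reads in each list lay at a place of dense input. On chromosome 13 from 120272801 to 120284200, a private H4K8bu island had 720 ChIP reads over 944 input reads, 82.8 input reads per kb and a fold of 1.17 (1.06 to 1.29). The next H4K8bu island by reads, on chromosome 4 from 129143401 to 129159200, had 450 over 297, an ordinary 18.8 input reads per kb, and a fold of 2.32 (2.00 to 2.69). On chromosome 8 from 19853401 to 19902600, a private H4K8ac island had 3187 ChIP reads over 4283 input reads, 87.1 input reads per kb and a fold of 1.06 (1.01 to 1.10). Among private H4K8ac islands with a fold of at least 3, the most reads were 85 over 32 on chromosome 15 from 31208801 to 31211600, a fold of 3.77 (2.48 to 5.85). The next had 84 over 35 on chromosome 11 from 78155801 to 78158000, a fold of 3.40 (2.27 to 5.20). Both were found in all 4 other lists used here, that is, H4K5bu and H4K5ac of round spermatids and H4K8bu and H4K8ac of spermatocytes. No private H4K8ac island with at least 100 reads went above a fold of 2.78, that of an island on chromosome 12 from 56935601 to 56939200.

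Where the marks met, they mostly met singly. The shared islands formed 24215 places, of which 22081 (91.2%) held exactly 1 island of each list, called one-to-one pairs from here on. In 1841 places (7.60%) a single H4K8bu island spanned several H4K8ac islands, 3966 in all and up to 7 in 1 place. The reverse, several H4K8bu islands under a single H4K8ac island, was found in 193 places (0.797%), and 100 places held several of both. Breaks thus lay far more often in the H4K8ac list.

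The spanning H4K8bu islands were wide. There were 1946 that spanned at least 2 H4K8ac islands, with a median width of 12500 bp, against 4600 bp for H4K8bu islands on a single H4K8ac island. The 2244 gaps inside them had a median of 1000 bp (quartiles 800 and 1800), and 800 bp is the smallest gap the lists hold, so most breaks were short. In the H4K8ac list 293 islands spanned 2 H4K8bu islands and none spanned more. The H4K8bu island over the most H4K8ac islands lay on chromosome 2 from 83793801 to 83834600, where 40800 bp with a fold of 3.196 (2.93 to 3.49) ran over 7 H4K8ac islands. In spermatocytes the same H4K8bu stretch met 5 H4K8bu and 7 H4K8ac islands.

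In one-to-one pairs the H4K8bu island was usually the wider and held the H4K8ac island inside it. It was wider in 18236 pairs (82.6%, 82.1 to 83.1), equal in 4.73% and narrower in 12.7%. Median widths in these pairs were 4600 bp for H4K8bu and 3200 bp for H4K8ac, the median difference was 1200 bp (quartiles 400 and 2400), and the median ratio of widths 1.35. H4K8bu covered the whole H4K8ac island in 68.1% of pairs and ran past both of its edges in 49.9%. H4K8ac covered the H4K8bu island in 7.15% and ran past both edges in 2.73%. In 23.1% of pairs the islands were shifted, with each list further out on 1 side.

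The extra width lay on both sides alike. H4K8bu ran further out in 70.4% of pairs at the left edge and in 70.7% at the right. The median outward distance was 400 bp at each edge (quartiles 0 and 1200), and the means were 773 bp on the left and 769 bp on the right. The left and right distances of a pair were nearly unrelated across pairs (Pearson r = 0.067, n = 22081 pairs that share the 2 libraries). Long extensions were common for H4K8bu alone. It ran at least 2 kb past the H4K8ac edge on 1 or both sides in 25.2% of pairs, against 0.897% for H4K8ac past H4K8bu.

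**Figure D3:**
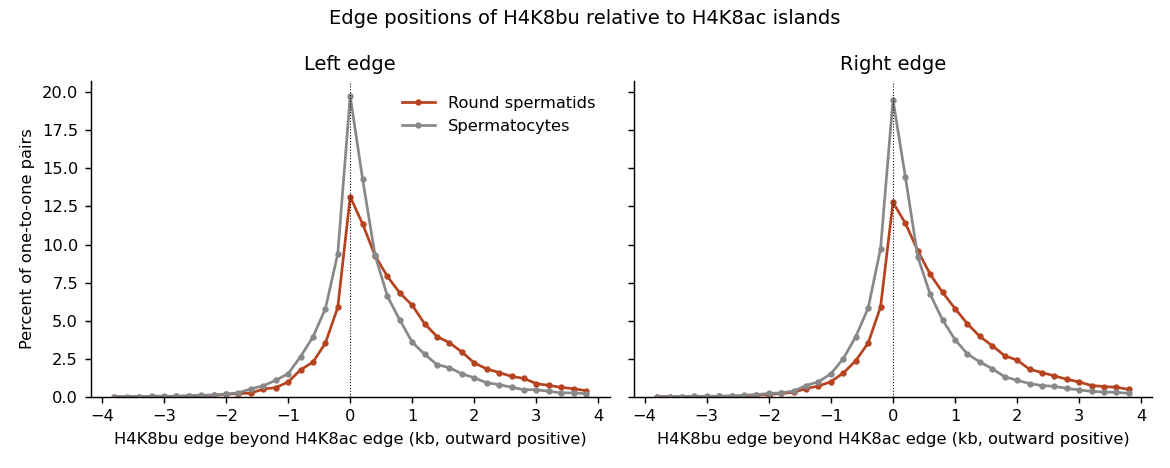
Distance in kb from the H4K8ac edge to the H4K8bu edge in one-to-one pairs, outward positive, at the left and right edge, as percent of pairs per 200 bp step, for round spermatids and spermatocytes. In both stages the curve peaks at 0 and has a heavier outward side, and the round spermatid curve is the broader, with a median of 400 bp at each edge against 200 bp in spermatocytes.

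The outer parts did not differ in input from the cores. In 11480 pairs H4K8bu covered the H4K8ac island and was at least 1 kb wider, so that the difference of the input reads belongs to the flanks. The median was 17.1 input reads per kb in the flanks and 17.1 in the cores, and over all these pairs 17.4 and 17.7. The files give no ChIP reads of H4K8ac outside its own islands, so the level of H4K8ac in these flanks was not measured.

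At paired islands the H4K8bu fold was mostly the higher. The balance of a pair is the log2 ratio of the H4K8bu fold over the H4K8ac fold, so that 0 is an equal fold. Its median was 0.32 (quartiles 0.10 and 0.50), with median folds of 3.81 for H4K8bu and 3.12 for H4K8ac, and H4K8bu was higher in 83.6% of pairs. A fold at least 1.5 times higher for H4K8bu was found in 3569 of 22081 pairs (16.2%), and one at least 1.5 times higher for H4K8ac in 235 (1.06%). The level of the balance rests on the constants of the lists: with each list scaled by its own summed reads instead, the median was 0.021 and the counts turned round, to 441 for H4K8bu and 1004 for H4K8ac. Relative to its own median, the ratio was at least 1.5 times above in 372 pairs (1.68%) and at least 1.5 times below in 1113 (5.04%). Most pairs therefore kept close to a common ratio, and the log2 folds of the marks had a Pearson r of 0.74 across pairs, which share libraries and input.

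The balance depended on how the widths compared, since a fold averages over the whole island. Its median was 0.59 where H4K8ac was the wider, 0.47 at equal width, 0.37 where H4K8bu was wider by up to 1 kb, 0.27 at 1 to 2 kb, 0.20 at 2 to 4 kb and 0.099 above 4 kb. A width-free view comes from the 356 pairs (1.61%) with identical edges, in which both lists hold the same input reads, so that the input cancels from the ratio. There the median balance was 0.42 (quartiles 0.26 and 0.58), with median folds of 3.79 for H4K8bu and 2.85 for H4K8ac, and H4K8bu was higher in 96.6%. In the 2133 pairs whose edges differed by at most 200 bp on each side, the median was 0.45.

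By the joint width of a pair, the balance moved little. From the narrowest to the widest quintile, with median joint widths of 2400 to 10400 bp, the medians were 0.31, 0.30, 0.29, 0.32 and 0.36. The 477 pairs over 16 kb had 0.42 and the 47 pairs up to 1 kb 0.077. In identical-edge pairs the medians by width were 0.27, 0.40, 0.39, 0.51 and 0.54, a difference of 0.28 between the outer quintiles, against 0.055 in all one-to-one pairs.

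Strength was taken as the mean log2 fold of the pair, so it is made of the same folds as the balance and not independent of it. By strength, the medians were 0.25, 0.29, 0.32, 0.35 and 0.38 from the weakest to the strongest quintile. Little of this climb was left when 1, the level of input, was taken off each fold before the ratio. The median ratio of what was left was then 1.37, 1.36, 1.36, 1.38 and 1.39 from weakest to strongest. In identical-edge pairs the medians by strength were 0.21, 0.39, 0.42, 0.51 and 0.59, and with 1 taken off each fold the outer quintiles differed by 0.26, with an interval from the spread between pairs of -0.0085 to 0.46, which includes 0. The same difference in all one-to-one pairs was 0.017 (-0.015 to 0.045). The weakest quintile of identical-edge pairs had median folds of 2.18 for H4K8bu and 1.76 for H4K8ac.

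The order changed with the list that ranked the pairs. Ranked by the H4K5 folds at the same place in round spermatids, the medians ran 0.26, 0.29, 0.31, 0.35 and 0.39. The H4K5 folds use other ChIP reads than the balance but share its input library. With 1 taken off each fold, the median ratios in this ranking were 1.37, 1.35, 1.36, 1.39 and 1.41. Ranked by the H4K8 folds in spermatocytes, the median balances ran the other way, 0.39, 0.37, 0.31, 0.28 and 0.28, over the 15058 pairs with such an island. With 1 taken off each fold, the ratios there went from 1.47 in the weakest to 1.29 in the strongest quintile. Places with the strongest H4K8 signal in spermatocytes had the smaller H4K8bu excess in round spermatids, and also the smaller width difference, 1000 bp in the strongest against 1600 bp in the weakest quintile. In identical-edge pairs, which have no width difference, the medians in this ranking were 0.54, 0.47, 0.46, 0.46 and 0.52, with no steady order.

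**Figure D4:**
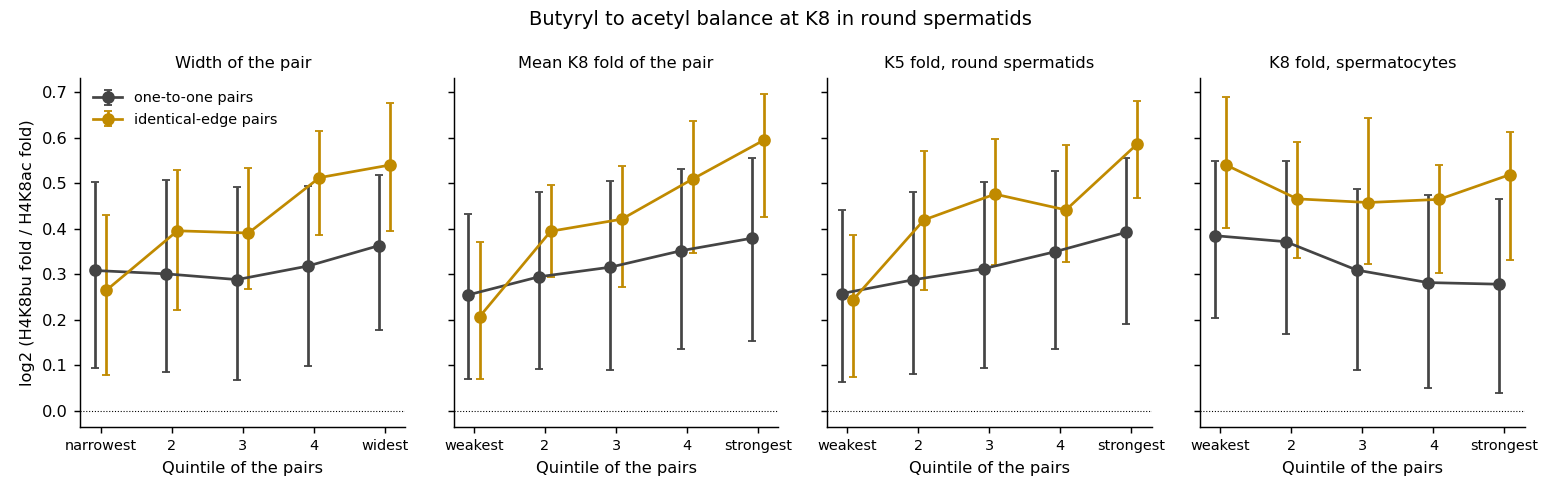
Median balance, log2 of H4K8bu fold over H4K8ac fold, by quintiles of the pairs, from left to right by joint width, by mean K8 fold, by H4K5 fold in round spermatids and by K8 fold in spermatocytes, for one-to-one and identical-edge pairs. Bars are quartiles and the dotted line is an equal fold; in one-to-one pairs the balance climbs from 0.25 to 0.38 by K8 fold and goes down from 0.39 to 0.28 by spermatocyte K8 fold.

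Pairs with identical edges give the plainest single examples. On chromosome 13 from 42136601 to 42147000, H4K8bu had 733 reads and H4K8ac 518 reads over the same 176 input reads, folds of 6.37 and 4.17 and a ratio of 1.53 (1.36 to 1.71). On chromosome 8 from 124518401 to 124529400, there were 615 reads for H4K8bu and 493 for H4K8ac over 192 input reads, a ratio of 1.34 (1.19 to 1.52). The highest ratio among identical-edge pairs with at least 100 reads in each list came to 1.96 (1.65 to 2.34), on chromosome 19 from 57595201 to 57599400, with 362 H4K8bu and 199 H4K8ac reads over 60 input reads. On chromosome 14 from 32148001 to 32151600, the ratio was 1.84 (1.503 to 2.25), from 266 and 156 reads over 59. These 4 regions were marked in all 4 other lists.

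The lowest ratios of identical-edge pairs lay where input was dense and neither mark stood far above it. On chromosome 8 from 19765201 to 19793600, there were 2232 H4K8bu and 2544 H4K8ac reads over 3184 input reads, folds of 1.07 and 1.13 and a ratio of 0.946 (0.893 to 1.00). On chromosome 15 from 74915801 to 74917600, 819 H4K8bu and 905 H4K8ac reads lay over 1012 input reads, with a ratio of 0.976 (0.887 to 1.07). Both intervals contain 1. The widest island of each list lay in the same neighbourhood of chromosome 8, from 19913601 to 20038000 for H4K8bu at a fold of 1.21 (1.19 to 1.24) over 15519 input reads, and from 19915001 to 20038000 for H4K8ac at a fold of 1.16 (1.13 to 1.18) over 15471.

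Among all one-to-one pairs where both lists had 100 or more reads, the most extreme balances were found at pairs whose edges differed. The highest H4K8bu to H4K8ac ratios were 3.12, 2.95 and 2.78, and in each the H4K8ac island was the wider, by 1000, 8400 and 2200 bp. The first lay on chromosome 2, with H4K8bu from 67777001 to 67779600 (127 reads over 36, fold 5.39) and H4K8ac from 67778001 to 67781600 (105 over 86, fold 1.73). The lowest ratios, given as H4K8ac over H4K8bu, were 2.13, 2.13 and 2.02, and in each H4K8bu was the wider by 4800 bp or more. The first lay on chromosome 6, with H4K8bu from 124911001 to 124918400 (250 over 94, fold 4.07) and H4K8ac from 124914001 to 124916600 (110 over 18, fold 8.67). Such ratios therefore compare folds over unlike stretches.

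The same lysine in spermatocytes gave the nearest comparison. There 77.8% of H4K8bu and 93.4% of H4K8ac islands were shared, against 72.5% and 96.1% in round spermatids. The H4K8bu island was the wider in 63.2% of one-to-one pairs in spermatocytes, against 82.6% in round spermatids, and the median width difference was 400 bp against 1200 bp. Single H4K8bu islands over several H4K8ac islands made up 7.60% of places in round spermatids and 4.88% in spermatocytes. The median balance was 0.32 in round spermatids and 0.25 in spermatocytes. Pairs at least 1.5 times higher for H4K8bu were 16.2% and 15.5%. Those at least 1.5 times higher for H4K8ac were 1.06% in round spermatids and 2.82% in spermatocytes. In identical-edge pairs, which have no width difference, the median balance was 0.42 in round spermatids and 0.28 in spermatocytes, and H4K8bu was higher in 96.6% and 83.7%. The relative width of H4K8bu and, with the constants of the lists, its balance at identical edges were higher in round spermatids, between single libraries. The balances and the 1.5-fold counts of both stages rest on those constants. Scaling by summed reads took the one-to-one median in round spermatids to 0.021. It was not applied to the spermatocyte lists, so the order of the stages under it was not tested.

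At lysine 5 of the same round spermatids the acetyl island was the wider somewhat more often. H4K5bu was the wider in 41.9% of one-to-one pairs and H4K5ac in 49.6%, with a median difference of 0 bp, against 82.6% and 1200 bp for H4K8bu. The median balance of butyryl over acetyl was 0.32 at K8 and -0.37 at K5, where H4K5ac had the higher fold. A fold at least 1.5 times higher for acetyl was found in 1.06% of pairs at K8 and 24.1% at K5, and one higher for butyryl in 16.2% at K8 and 0.807% at K5. These balances and counts rest on the constants of the lists. At K5 the folds of summed reads were 4.01 for H4K5bu and 5.35 for H4K5ac. Scaled by summed reads, the K8 median was 0.021. The K5 lists were not rescaled, so whether the contrast holds under that scaling was not tested. The antibodies differ between all 4 marks, so the lysines cannot be told apart from them.

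The K8 balance in round spermatids was also set beside the balance at the same places in spermatocytes and at K5. Over 13399 places with a balance in both stages, the medians were 0.32 in round spermatids and 0.29 in spermatocytes. The median difference was 0.037, and the round spermatid balance was the higher at 53.5% of places. The Pearson r across places was 0.069 (Spearman rho 0.073). Over 19281 places with a balance at both lysines, r was -0.117 (rho -0.122). Those places share the input library of the stage. Counting error and unlike edges within pairs enter each balance, and their part in these low correlations was not tested.

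The other lists were read at private and shared K8 islands, and they did not enter the choice of either class. Private H4K8bu islands mostly carried marks at K5. H4K5bu was found at 80.6% (79.8 to 81.4) of private and 99.01% of shared H4K8bu islands, and H4K5ac at 82.8% (82.0 to 83.6) and 99.04%. So a place with H4K8bu and no H4K8ac island was in most cases an acetylated place at K5. Neither K5 mark was found at 7.68% of private and 0.196% of shared H4K8bu islands. Private H4K8ac islands had K5 marks less often, H4K5bu at 65.9% (63.0 to 68.7) of private and 98.95% of shared, and H4K5ac at 56.9% (53.9 to 59.9) and 98.9%.

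The classes also differed in their overlap with the lists of the earlier stage. An H4K8bu island of spermatocytes lay at 38.9% (37.9 to 39.9) of private and 83.3% of shared H4K8bu islands, and an H4K8ac island at 27.97% and 70.8%. For private and shared H4K8ac islands the shares were 47.8% and 83.3% with H4K8bu of spermatocytes and 43.9% and 69.6% with H4K8ac. Neither mark was found in spermatocytes at 59.9% of private and 16.3% of shared H4K8bu islands. Wider islands meet others more easily, but at a width of 2 to 4 kb the differences for H4K8bu remained. There H4K5bu lay at 80.4% of private and 98.4% of shared islands, and H4K8bu of spermatocytes at 38.8% and 68.7%. Fold was not matched. Among islands of that width with both K5 marks, the median fold was 2.77 in private and 3.50 in shared H4K8bu islands, and the part of fold in these differences was not tested. None of the 4 other lists marked 5.51% of private H4K8bu islands and 14.8% of private H4K8ac islands, and their median folds were 2.31 and 1.86.

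**Figure D5:**
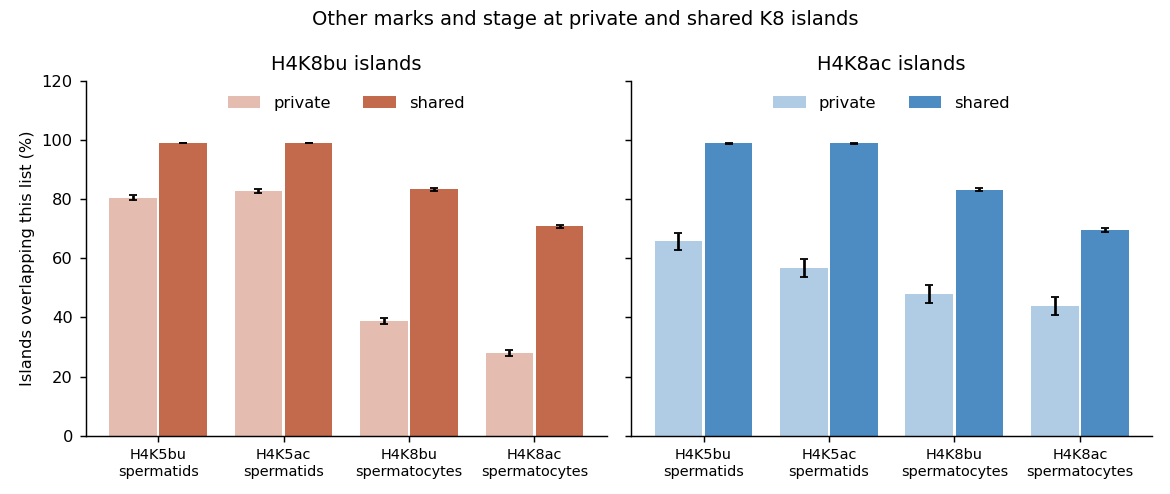
Percent of private and shared H4K8bu islands (left) and H4K8ac islands (right) that overlap an island of H4K5bu or H4K5ac in round spermatids or of H4K8bu or H4K8ac in spermatocytes. Bars on the columns are exact 95% intervals; private columns are lower throughout, most of all for the spermatocyte lists at H4K8bu islands, 38.9% against 83.3% and 27.97% against 70.8%.

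One-to-one pairs were almost all marked at K5, 21676 of 22081 (98.2%) by both K5 lists. Both K8 lists of spermatocytes marked 15055 pairs (68.2%), with a median balance of 0.33, and neither marked 3910 (17.7%), with 0.28. The 3026 pairs with H4K8bu alone in spermatocytes had 0.33, and the 90 with H4K8ac alone 0.17. Presence of a mark in the earlier stage thus went with differences in balance well inside the quartiles of all pairs.

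The pattern held on each of the 19 autosomes. The shared part of H4K8bu islands lay between 67.9% on chromosome 6 and 75.5% on chromosome 9, and that of H4K8ac islands between 93.8% on chromosome 13 and 97.6% on chromosome 16. The median balance lay between 0.28 and 0.34, H4K8bu was the wider in 80.2% to 85.5% of pairs, and the median width difference was 1000 to 1400 bp. Islands were not assigned to genes or promoters, since the only gene table used here is of a later build.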

How the data were processed

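Per the submitters' processing notes, the tools were Bowtie2 2.2.5, SICER, CASAVA 1.8.2 and deepTools 1.5.11, and the build was mm9. For SICER no version is given, and no settings or treatment of duplicate reads are given in the sources used here. Lists as deposited, 1 per ChIP library and without headers, gave for each island the authors' count of ChIP reads and of input reads, with a fold, a p-value and a q-value. The deposited fold equals ChIP over input reads, a ratio, multiplied by a constant that is the same throughout a list, and every q-value used here was below 0.01. Depth is known only as reads inside islands.

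Folds of single islands were used as given in the lists. Folds of summed reads, joined islands, merged regions and rescaled alternatives were computed from the counts, most of them with the constant of the list. The work used Python 3.11.15, numpy 2.4.6, pandas 2.3.3, scipy 1.17.1 and matplotlib 3.10.9. The X and Y chromosomes were left out, 1007 H4K8bu and 505 H4K8ac islands. Overlap needed at least 1 bp. Joint width is that of the union of a pair. Intervals were exact, Clopper-Pearson for shares and conditional binomial for folds and ratios. Those of medians came from the ranked values across islands or pairs. Ranges for differences of medians subtract opposite ends of the intervals of both medians. Reads carried no molecular identifiers, so they may repeat molecules, and islands close together may depend on each other. The counting steps were tested on simulated lists.

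Regions named in the text followed 1 rule. Among one-to-one pairs with at least 100 ChIP reads in each list, it took the 3 highest and 3 lowest balances and the widest difference each way. Among identical-edge pairs it took the 2 with the most reads and a fold of at least 3, and the 2 highest and 2 lowest with at least 100 reads in each list. Among private islands of a list it took the 2 with the most reads, the 2 with the most reads at a fold of at least 3, and the 2 strongest with at least 100 reads. It also took the widest island of each list and the island that spanned the most. The text gives those it needs. A fold of 1.5 was the size used for counts of pairs.

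The members, lists and comparisons were chosen with earlier results of these data known. Alternatives changed the overlap rule, joined near islands, shortened the lists by fold or q-value, filtered on input, rescaled or offset the folds, and replaced the pairs by merged regions or by pairs with like edges. Positions are in mm9, counted from 1.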

Additional observations from a re-analysis of the deposited data

Results flagged for a closer look

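The sex chromosomes lie outside the comparisons above, and islands were called on them over input. On X the summed reads of the islands gave a fold of 3.04 for H4K8bu (965 islands) and 1.74 for H4K8ac (468 islands). The median island on X had a fold of 4.12 for H4K8bu and 2.92 for H4K8ac, and input on these islands was 19.1 reads per kb for H4K8bu and 37.4 for H4K8ac, against 18.2 and 18.8 on the autosomes. On Y the folds of summed reads were 1.59 for H4K8bu (42 islands) and 1.43 for H4K8ac (37 islands), at 146 and 184 input reads per kb. Of the X islands, 39.7% of H4K8bu and 86.1% of H4K8ac were shared. The 355 one-to-one pairs on X had a median balance of 0.25 and a wider H4K8bu island in 81.1%.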

How the results depend on the processing

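Alternative values were set against the interval of the value. For differences of medians this was the wider range described above, and for counts of pairs a limit of 1.5 times. Of 105 alternative values of the 12 results, 48 stayed within, 56 moved further and 1 changed sign. That one was the difference in balance between the strongest and weakest quintile of pairs, 0.12 by the pairs' own fold and -0.11 by spermatocyte K8 fold; the cause was not tested. With an overlap of at least 50% of both islands, the shared parts were 57.5% for H4K8bu and 70.6% for H4K8ac, and the private minus shared log2 fold was -0.46 for H4K8bu and -0.066 for H4K8ac, against -0.50 and -0.51 with an overlap of 1 bp. With 50% of the narrower island, the H4K8ac part was 95.6%, and with islands under 2000 bp apart joined, the H4K8bu part was 73.4%.

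With only the stronger 50% of both lists, the shared parts were 67.3% for H4K8bu and 86.8% for H4K8ac, the log2 fold differences -0.28 for H4K8bu and -0.14 for H4K8ac, the wider H4K8bu island was found in 88.0% of pairs with a median difference of 1600 bp, the strength difference in balance was 0.15, the pairs past 1.5-fold were 1447 for H4K8bu and 71 for H4K8ac, and the identical-edge balance was 0.49. With lists of equal length the shared parts were 79.9% for H4K8bu and 86.9% for H4K8ac, the log2 fold differences -0.35 for H4K8bu and -0.61 for H4K8ac, the balance 0.34 in one-to-one and 0.47 in identical-edge pairs, and the strength difference 0.031. With q-values below 1e-10 the shared parts were 66.5% for H4K8bu and 98.2% for H4K8ac, the log2 fold differences -0.53 for H4K8bu and -0.12 for H4K8ac, the wider H4K8bu part 84.2% at 1400 bp, the balance 0.31 in one-to-one and 0.47 in identical-edge pairs, and the width and strength differences 0.075 and 0.16. With at least 20 input reads, 71.0% of H4K8bu islands were shared, the private minus shared log2 fold was -0.48, the balance 0.32, and 106 pairs were at least 1.5 times higher for H4K8ac.

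Scaled by summed reads, the balance was 0.021 in one-to-one and 0.13 in identical-edge pairs, with 441 pairs past 1.5-fold for H4K8bu and 1004 for H4K8ac. In merged regions it was 0.32. By the width of the intersection the width difference in balance was 0.24, and in identical-edge pairs the width and strength differences were 0.28 and 0.39. Alternatives chosen after seeing the data were folds minus 1 and pairs with both edges within 200 bp. With folds minus 1 the balance was 0.46 in one-to-one and 0.62 in identical-edge pairs, the width and strength differences were 0.035 and 0.017 in one-to-one and 0.28 and 0.26 in identical-edge pairs, and the counts were 8273 for H4K8bu and 567 for H4K8ac. With both edges within 200 bp the balance was 0.45 and the width and strength differences 0.22 and 0.25. No paired analysis was possible because each group had 1 library.

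With 1 library per mark, the spread between animals or immunoprecipitations is unknown. Weak islands rest on few reads, and an island missing from a list is uncalled, not a measured absence. The balance level depends on the scaling, and the part of the settings of island calling in widths and breaks was not tested.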
